A study of Bos taurus with 40 samples.

Results

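Of 10 matricellular genes, 9 were measured in the count tables of 13570 genes: the tenascin TNC, the fibronectin gene FN1, SPARC and its relative SPARCL1, the thrombospondins THBS1, THBS2 and THBS4, the periostin gene POSTN, and CTGF. The tenascin TNXB was not analysed here. The members were selected by their symbols, and they were chosen by someone who knew of the male to female difference of TNC in liver in these data, so the liver values of the sexes are given as a description and were not tested. Each of the 9 genes had at least 1 read in at least 1 library and so was among the 13148 genes tested; this filter used no group.

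Matricellular proteins are secreted into the extracellular matrix, where they bind collagens, growth factors and cell surface receptors such as integrins, and change how firmly cells attach and how they respond to signals, more than they bear mechanical load. Many of them are known for high expression in development and in wound repair and for lower expression in resting adult tissue. Fibronectin is a structural adhesive glycoprotein as well as a signal, and hepatocytes secrete its soluble form into the blood plasma.

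The animals were 10 Korean cattle of which 5 were female (cows) and 5 male (bulls), slaughtered at above 22 months of age, with no treatment named in the labels. From every animal the pituitary gland, the liver, the intact longissimus dorsi muscle and the abdominal fat gave 1 RNA library each, so that the 8 groups of tissue and sex held 5 libraries each and the whole set 40. The animals were numbered within a sex, and cow 1 and bull 1 are unrelated by that number. With 1 library per animal and tissue, p-values within a tissue measure the spread between animals and that of library preparation together. The main fits over several tissues had no term for the animal, so they counted the libraries of 1 animal as independent.

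The libraries held 5173092 to 19165864 reads on genes, with a median of 10005607. Levels are CPM, the reads of a gene per 1e6 reads on genes, scaled by TMM factors over the 40 libraries, which make libraries of different composition comparable. Levels of different genes were not compared, because no transcript lengths were at hand. In 2 libraries the sex-linked genes went against or fell short of the label. The liver library labelled bull 3 held XIST, the RNA of the silenced X chromosome, at 1401 CPM and no read of the Y-linked USP9Y and DDX3Y. Of all liver libraries it was closest to that of cow 4 (r = 0.9932). The chi-square per gene between the counts of this pair was 15.8, against 45.8 for the next liver pair and a median of 116.8. The counts of the pair still differed beyond sampling noise, and whether they share a source was not tested. USP9Y was read in the fat, muscle and pituitary of bull 3. Counts of animals that set liver against another tissue, and the fit with the animal as a block, pair this library with bull 3 by its label. For 1 of the 10 animals that pairing is in doubt. The fat library of bull 5 held USP9Y at 1.78 CPM, against 28.1 to 34.1 CPM in the fat of the other bulls, with XIST at 1.39 CPM. The summed levels of hepatocyte, adipocyte, muscle fibre and anterior pituitary markers were each highest in the tissue of the label, with no overlap with any other tissue. In bulk tissue, fewer cells of a type and less RNA per cell cannot be told apart.

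Tissues differed in the matricellular genes far more often than the sexes did, and this held over all genes as well. A gene was called when its adjusted p fell below 0.05 in edgeR's likelihood ratio test with Benjamini-Hochberg adjustment over all tested genes, in a model of sex and tissue over the 40 libraries. Of all genes, 60.4% to 65.6% were called between tissues and 0.114% to 0.745% between the sexes within fat, muscle or pituitary. Those fits of the sexes held 10 libraries each. Between liver and fat, 9 of 9 members were called, 3 of them higher in liver and 6 higher in fat, beside 65.1% of all genes, of which 29.2% were higher in liver and 35.8% higher in fat. Between liver and muscle, 8 were called, 3 higher in liver and 5 in muscle, where the shares of all genes were 62.8%, 28.4% and 34.4%. Between liver and pituitary gland, 7 were called, 2 higher in liver and 5 in pituitary, where all genes gave 65.4%, 29.7% and 35.6%. TNC is 1 of the members called higher in liver in each of these 3 contrasts, and its liver values are those that chose it, so its liver calls are read as a description.

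FN1, SPARC and THBS2 were higher in fat than in muscle, and SPARCL1 and THBS4 were higher in muscle. These are 5 called members, beside 60.4% of all genes, 33.3% higher in fat and 27.1% higher in muscle. Fat against pituitary gave 8 calls, 5 higher in fat and 3 in pituitary, with 65.6%, 32.3% and 33.3% of all genes. Muscle against pituitary gave 5 calls, with FN1, SPARC and THBS4 higher in muscle and TNC and POSTN higher in pituitary, beside 64.9%, 32.0% and 33.0%. The members' shares thus lay near the background in several contrasts, and what set the members apart from each other was the direction and size of their differences. The median log2 fold change of the 9 members was -2.005 for liver over fat and -1.39 for liver over muscle, while the medians of all tested genes were -0.13 and -0.11.

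**Figure D1:**
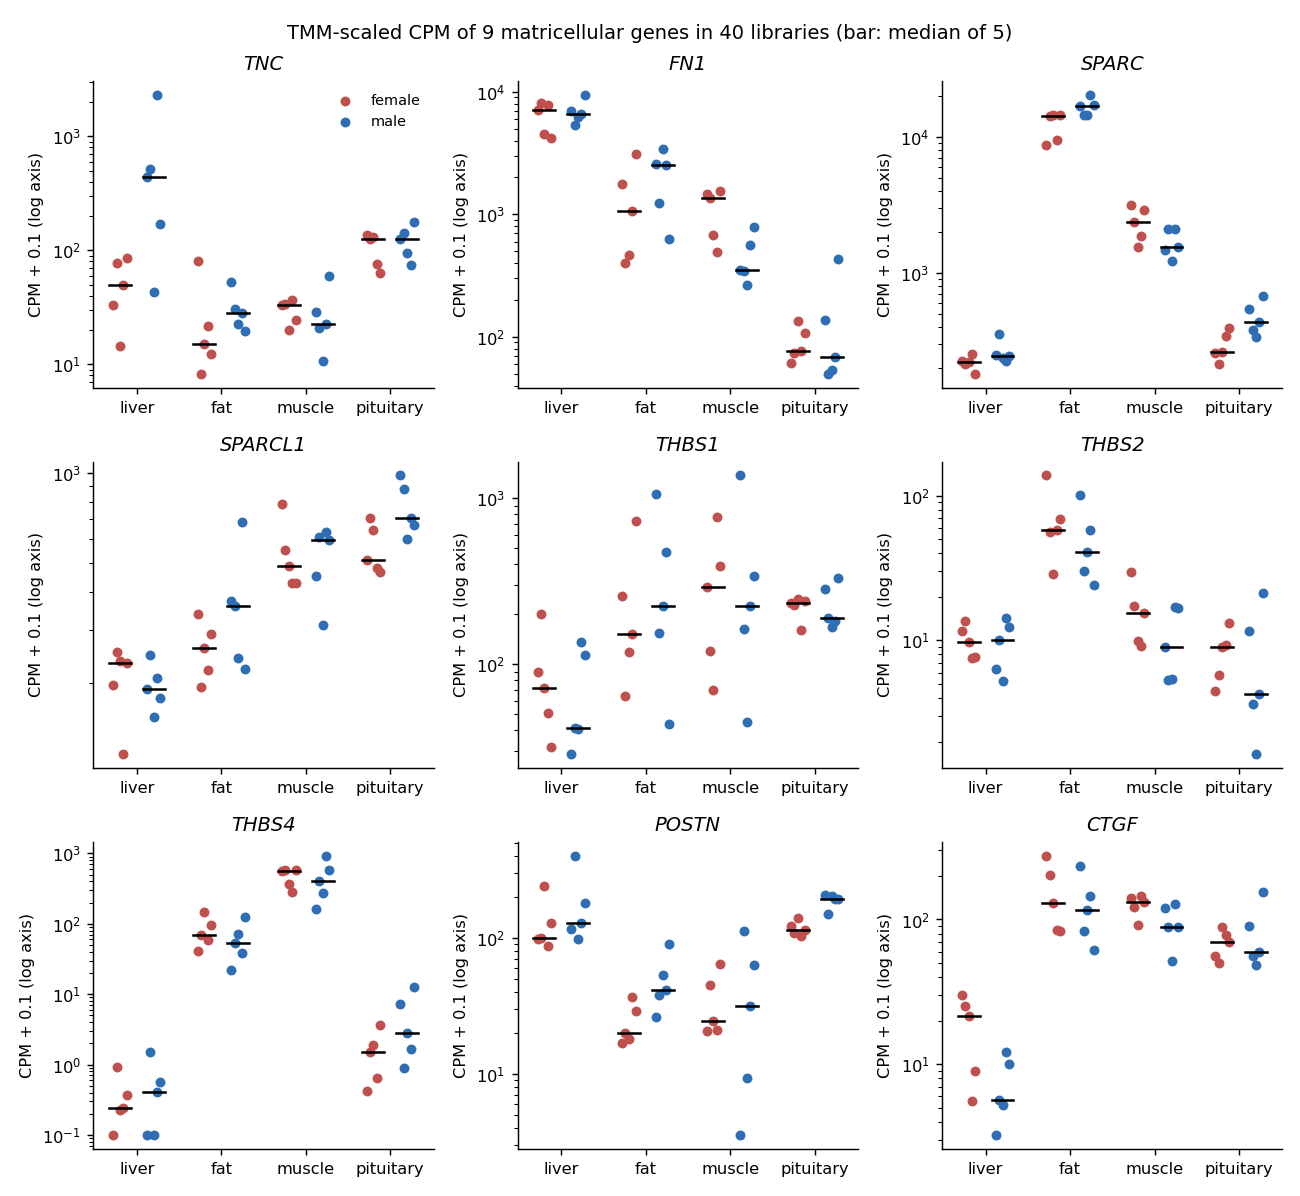
TMM-scaled CPM plus 0.1 on a log axis of the 9 genes in liver, fat, muscle and pituitary gland, a point for each library of females (red) and males (blue), with black bars at the median of 5. FN1 was highest in liver, SPARC and THBS2 in fat, and THBS4 in muscle in all 10 animals.

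FN1, the gene of fibronectin, fell in the order liver, fat, muscle and pituitary. In liver it ranged from 4157 to 9412 CPM with a median of 6795, and in fat from 399.7 to 3397 CPM with a median of 1503. Muscle held 263.1 to 1551 CPM with a median of 619.3, and pituitary 49.7 to 429.4 CPM with a median of 75.8. Liver did not overlap with any other tissue, while fat and muscle overlapped widely. In 10 of 10 animals liver was the highest of the 4 tissues and pituitary the lowest. FN1 was 55.8-fold higher in liver than in pituitary (log2 fold change 5.80 ± 0.38 (SE), adjusted p = 1.17e-34) and 3.87-fold higher in liver than in fat (adjusted p = 1.86e-06). The step from fat to muscle was the smallest, at 2.16-fold (adjusted p = 0.00852). It was seen in 7 of 10 animals, and without bull 3 it was no longer called (log2 fold change 0.84, adjusted p = 0.0575).

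TNC encodes tenascin-C, a large hexameric glycoprotein that opposes cell adhesion to fibronectin. Its level in pituitary was 63.8 to 175.9 CPM with a median of 126.1. In muscle it was 10.6 to 59.97 CPM with a median of 26.7, and in fat 8.12 to 81.0 CPM with a median of 21.9. Pituitary exceeded fat in 10 of 10 animals, by 3.92-fold over all libraries (adjusted p = 0.000335), and it exceeded muscle 3.84-fold (adjusted p = 0.000412). Fat and muscle were not told apart (log2 fold change -0.03, 95% interval -1.02 to 0.95). The model took a single dispersion estimate per gene over the 40 libraries. The liver values of TNC, which chose it, thus enter these p-values and this interval.

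In liver TNC spanned 14.5 to 2305 CPM with a median of 81.4, the widest spread of any member in any tissue (coefficient of variation 187.7%). As a description, the model gave liver 9.80-fold more TNC than fat, with liver above fat in 8 of 10 animals. This difference was 3.29 on the log2 scale, and it was 2.17 without bull 4 and 3.85 without cow 1. For liver over muscle it was 3.26, or 2.12 without bull 4. Against pituitary the model and the median differed in direction: the fitted level was 2.50-fold higher in liver, while the median was lower in liver and 6 of 10 animals had more TNC in the pituitary. The model's call was lost with the animal as a block (log2 fold change 0.59), with library sizes alone (0.48), without bull 1, without bull 2 and without bull 4, where the log2 fold change was 0.16.

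The livers of the cows held TNC at 32.9, 77.3, 14.5, 49.8 and 85.6 CPM, in the order cow 1 to cow 5. Those labelled bull 1 to bull 5 held 441.7, 514.8, 43.0, 2305 and 171.2 CPM. The library labelled bull 3, whose sex-linked genes went against its label, lay within the female range, and the other 4 male libraries lay above every female. The log2 fold change of males over females was 3.73 with all 10 libraries and 4.03 without that library, and ranged from 2.53 to 4.03 as each animal was left out. These values chose the member and carry no test.

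Markers of most cell types had unequal means in the livers of the sexes, and several counts rested on the library labelled bull 3. Of the 8 endothelial markers all had a higher mean in females, with summed levels from 387.0 to 902.2 CPM, against 360.1 to 621.3 CPM in males. The lowest male sum was that of the library labelled bull 3; without it 6 of 8 were higher in females and the males held 512.6 to 621.3 CPM. Of 8 markers of smooth muscle, pericytes and stellate cells, 7 were higher in females (267.8 to 690.3 CPM in females, 367.4 to 473.4 CPM in males), or 5 without that library. Of 8 leukocyte markers, 6 were higher in females (819.5 to 1828 CPM in females, 1153 to 1733 CPM in males), or 7 without it. Of 8 fibroblast markers, 6 were higher in females (401.9 to 765.3 CPM in females, 438.9 to 709.5 CPM in males), or 5 without it.

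Other lists were higher in the livers of males. These were 7 of 8 hepatocyte markers (153774 to 404799 CPM in females, 237939 to 359685 CPM in males), 7 of 8 muscle fibre markers (35.4 to 62.3 and 40.03 to 184.9 CPM), all 9 anterior pituitary markers (14.9 to 235.9 and 59.7 to 392.0 CPM), and 4 of 5 of the keratin and mesothelial list (149.0 to 566.1 and 252.7 to 877.4 CPM). Without the library labelled bull 3 these counts were 6, 8, 9 and 4. The adipocyte list had 5 of 6 higher in males (29.6 to 38.7 and 25.5 to 62.3 CPM), with or without that library. Higher in females were 4 of 6 Schwann and folliculostellate and 3 of 5 platelet and red cell markers. Of the 4 tenocyte markers 2 were higher in females and 1 in males. These counts were the same without that library. The ranges of the sexes overlapped in each of these lists, and their part in the TNC values was not tested.

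SPARC, also called osteonectin, binds collagen and calcium and is made by adipose stromal cells and fibroblasts. It was far highest in fat, at 8744 to 20311 CPM with a median of 14513. Muscle held 1209 to 3122 CPM with a median of 1974, pituitary 213.2 to 673.2 CPM with a median of 359.4, and liver 179.2 to 355.6 CPM with a median of 228.8. Fat did not overlap with any other tissue, and each animal had its highest SPARC in fat and its lowest in liver. The fold between fat and liver was 60.4 (log2 fold change of liver over fat -5.92 ± 0.19 (SE), adjusted p = 2.39e-133). Fat exceeded muscle 6.99-fold (adjusted p = 4.30e-40), and pituitary exceeded liver by a smaller 1.58-fold (adjusted p = 0.00135) that held in 10 of 10 animals.

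SPARCL1, known as hevin, shares the calcium-binding end of SPARC and is abundant in brain and in vessel walls. Its order over tissues differed from that of SPARC, and its range was narrower. Pituitary held 467.8 to 979.0 CPM with a median of 656.7, muscle 311.8 to 786.2 CPM with a median of 523.0, fat 193.9 to 683.7 CPM with a median of 276.5 and liver 115.7 to 253.8 CPM with a median of 202.5. Liver was the lowest tissue in 9 of 10 animals and pituitary the highest in 9 of 10. SPARCL1 was 3.25-fold higher in pituitary than in liver (adjusted p = 9.79e-17) and 1.69-fold higher in muscle than in fat (adjusted p = 0.000294). With library sizes alone, without TMM factors, the difference of fat and muscle changed sign and was not called (log2 fold change 0.04, adjusted p = 0.917). Muscle and pituitary were not told apart, with a log2 fold change of -0.31 (95% interval -0.69 to 0.07). They were told apart with library sizes alone (-1.21, adjusted p = 4.09e-07) and with edgeR's filter on low counts (-0.43, adjusted p = 0.0470), each time with more in the pituitary.

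**Figure D2:**
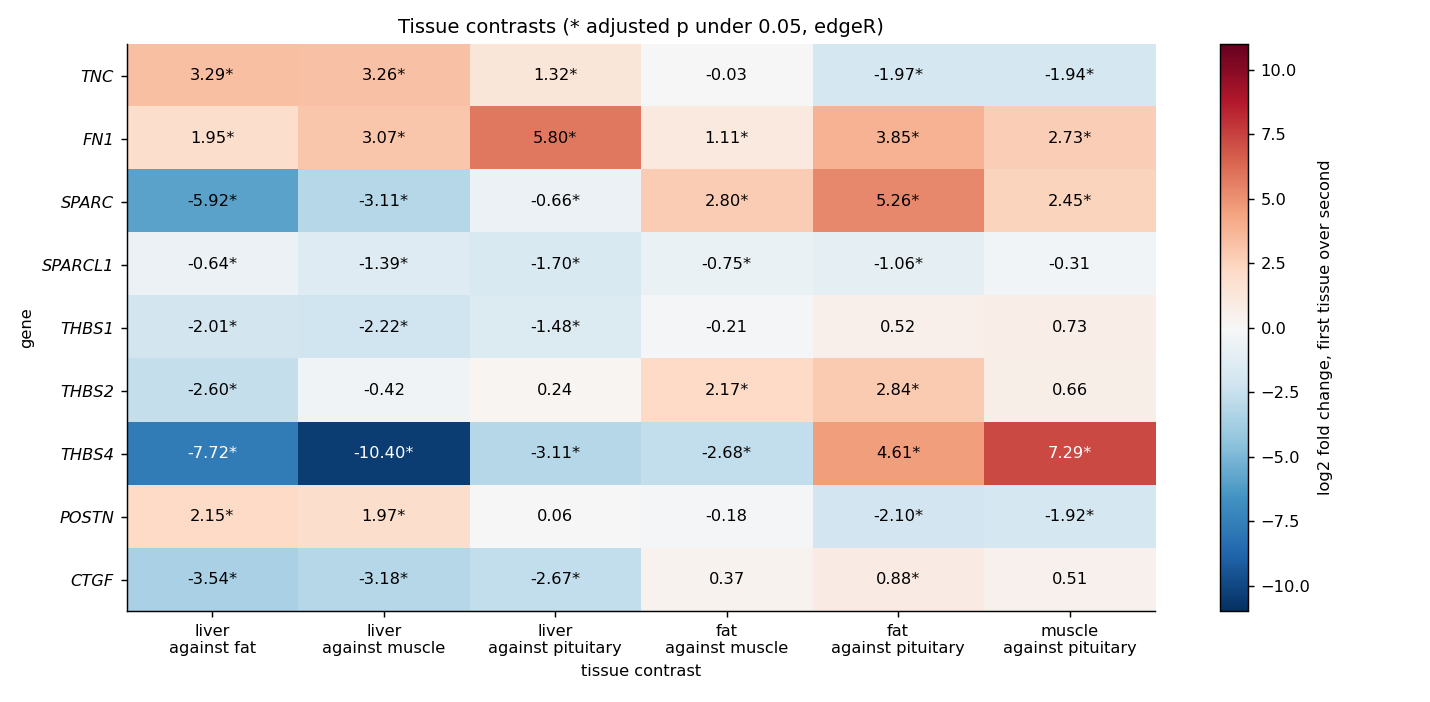
Log2 fold change of the first over the second tissue in each of 6 contrasts (columns) for the 9 genes (rows), with an asterisk where the adjusted p was below 0.05. THBS4 had the largest values, from -10.40 for liver over muscle to 7.29 for muscle over pituitary, and the liver values of TNC are a description.

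Thrombospondins differed in their tissue of highest level. THBS1, which activates latent TGF-beta and binds CD36 and CD47, was lowest in liver, at 28.3 to 199.97 CPM with a median of 61.2. Its medians in muscle, pituitary and fat were 256.9, 229.9 and 188.3 CPM, and these tissues were not told apart. Within muscle it ran from 44.4 to 1375 CPM and within fat from 43.6 to 1063 CPM, whereas pituitary held only 161.3 to 328.2 CPM. The coefficient of variation was 107.9% in muscle, 101.5% in fat and 23.5% in pituitary. Liver held 4.65-fold less than muscle (adjusted p = 1.49e-05) and 2.80-fold less than pituitary (adjusted p = 0.00347). In the present RefSeq annotation THBS1 overlaps FSIP1, which also has a row in the tables, and the sources used here do not give the strand setting of the counts.

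THBS2, which shares the structure of THBS1 and is known as an inhibitor of angiogenesis, was highest in fat in all 10 animals. Fat held 23.9 to 138.0 CPM with a median of 56.8, muscle 5.25 to 29.4 CPM with a median of 12.6, liver 5.16 to 14.3 CPM with a median of 9.81 and pituitary 1.53 to 21.1 CPM with a median of 7.28. Fat exceeded pituitary 7.14-fold (adjusted p = 2.19e-14) and muscle 4.51-fold (adjusted p = 3.20e-09). The 3 lower tissues overlapped and were not told apart. Between muscle and pituitary the log2 fold change was 0.66 (adjusted p = 0.0777), which was called with the animal as a block (adjusted p = 0.0438) and without bull 5 (0.79, adjusted p = 0.0279).

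THBS4, a pentameric thrombospondin known from tendon and muscle attachment sites, had the widest range over tissues. Muscle held 162.7 to 921.3 CPM with a median of 486.5, and fat 21.6 to 147.9 CPM with a median of 64.5. Pituitary held 0.316 to 12.7 CPM with a median of 1.70. Liver held at most 1.43 CPM, from 29 reads in 10 libraries of which 3 had none, so its level was near the floor of 3 reads in a library. Muscle was highest in 10 of 10 animals and overlapped with no other tissue. It exceeded fat 6.41-fold (adjusted p = 1.18e-07) and pituitary 156.9-fold (log2 fold change 7.29 ± 0.46 (SE), adjusted p = 1.25e-32). The fold between muscle and liver, 1354, rests on the few liver reads.

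POSTN encodes periostin, an integrin ligand that binds collagen in connective tissue. Pituitary held 103.9 to 208.5 CPM with a median of 145.9 and liver 87.9 to 401.6 CPM with a median of 122.8. Fat and muscle were lower, at 16.9 to 90.9 CPM with a median of 32.9 in fat and 3.47 to 112.6 CPM with a median of 28.1 in muscle. Liver exceeded fat 4.45-fold (adjusted p = 4.26e-09) and muscle 3.93-fold (adjusted p = 5.74e-08), in each case in 10 of 10 animals. Pituitary exceeded fat 4.28-fold (adjusted p = 9.50e-09). Liver and pituitary were not told apart by the main fit (log2 fold change 0.06, 95% interval -0.61 to 0.72), but with library sizes alone pituitary was higher (-0.77 for liver over pituitary, adjusted p = 0.0302). Fat and muscle were not told apart either (log2 fold change -0.18, 95% interval -0.84 to 0.49).

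CTGF, named CCN2 in present annotation, is an early target of TGF-beta and of the YAP pathway. It was lowest in liver in 10 of 10 animals, at 3.15 to 29.96 CPM with a median of 9.40. The medians were 123.8 CPM in fat, 121.3 CPM in muscle and 64.4 CPM in pituitary, and the lowest library of these tissues, at 48.7 CPM, was above the highest liver. Fat exceeded liver 11.7-fold (adjusted p = 1.48e-25) and pituitary exceeded liver 6.35-fold (adjusted p = 7.16e-16). Fat was 1.84-fold above pituitary (adjusted p = 0.00632). The log2 fold change of fat over muscle was 0.37 (adjusted p = 0.291) and, of the alternatives run, was called only with library sizes alone (1.20, adjusted p = 0.000583). That scaling moved the median of all genes by 0.73 in this contrast.

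The sexes were then compared within fat, muscle and pituitary, with 5 females and 5 males each. Among the members, 0 of 9 were called in fat, where 0.114% of all genes were called, and 0 of 9 in muscle, where 0.517% were. In each of these tissues 1 member had an unadjusted p under 0.05 in edgeR's likelihood ratio test. The pituitary gave 1 call, POSTN, beside 0.745% of all genes, and 4 members at an unadjusted p under 0.05. In the model of sex and tissue over the 30 libraries of these 3 tissues, 0 members were called and 1 had an unadjusted p under 0.05, while 0.601% of all genes were called. The interaction of sex and tissue gave 0 members, with 3 at an unadjusted p under 0.05 (SPARC, FN1 and THBS4), beside 0.19% of all genes. edgeR's quasi-likelihood test and DESeq2 also called 0 members in fat, in muscle, over the 3 tissues and for the interaction.

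**Figure D3:**
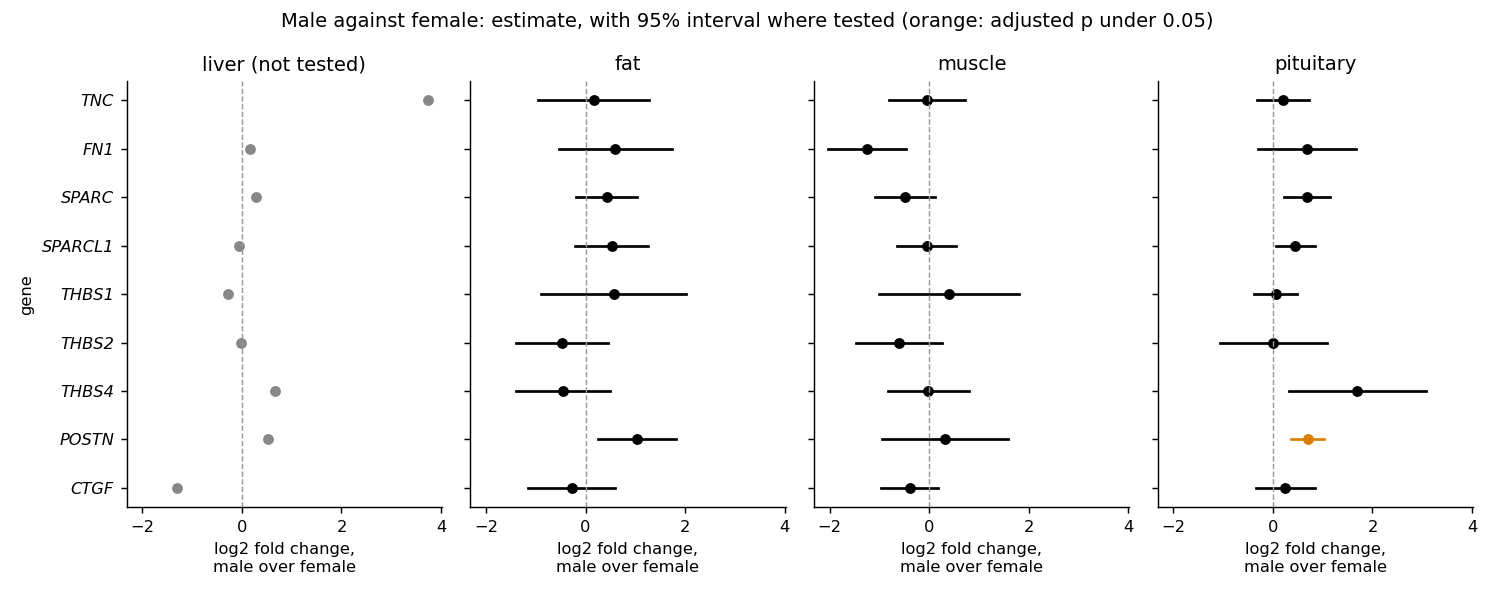
Log2 fold change of males over females for the 9 genes in each tissue, with its 95% interval in fat, muscle and pituitary. The liver values (grey, no interval) are a description, and POSTN in pituitary (orange), at 0.70, was called.

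POSTN was higher in the pituitary glands of bulls. The 5 cows held 121.8, 108.5, 140.5, 103.9 and 114.6 CPM, and the 5 bulls 208.5, 151.3, 204.7, 195.1 and 194.6 CPM. Every bull was above every cow, with bull 2 nearest to the cows. The fold was 1.62 (log2 fold change 0.70 ± 0.17 (SE), adjusted p = 0.0131 in edgeR's likelihood ratio test). The quasi-likelihood test gave the same size with an adjusted p of 0.146, and library sizes alone gave 0.53 with an adjusted p of 0.267. The adjusted p also came out above the threshold without bull 1 (0.0569), bull 3 (0.0767), cow 1 (0.0733), cow 2 (0.105) and cow 4 (0.0511), while the log2 fold change stayed between 0.66 and 0.78 as each animal was left out.

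Markers of most cell types had a higher mean in the glands of males. All 8 fibroblast markers did, with summed levels of 753.6 to 1776 CPM, against 588.9 to 818.7 CPM in the cows. The highest sum was that of bull 5 alone; without it the males held 753.6 to 975.8 CPM and 5 of 8 markers were higher in males. All 8 markers of smooth muscle, pericytes and stellate cells were higher in males (90.1 to 320.6 CPM in females, 136.5 to 806.3 CPM in males), or 6 without bull 5, and so were all 8 muscle fibre markers (12.2 to 80.3 and 53.3 to 110.3 CPM), with or without bull 5.

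The other lists mostly lay the same way in the pituitary. Higher in males were 8 of 9 anterior pituitary markers (84304 to 267724 CPM in females, 145809 to 287998 CPM in males), all 8 hepatocyte markers (51.3 to 73.0 and 58.8 to 207.0 CPM), all 5 of the keratin and mesothelial list (99.4 to 304.6 and 174.5 to 590.2 CPM), and 5 of 6 of the Schwann and folliculostellate list (51.0 to 134.7 and 74.1 to 129.9 CPM). Of the hepatocyte markers 6 were higher in males without bull 5. The adipocyte list had 5 of 6 higher in males, the endothelial list 5 of 8 and the tenocyte list 3 of 4. All 8 leukocyte markers were higher in females, at 73.0 to 174.7 CPM against 43.5 to 174.5 CPM. Without bull 5 all 8 were still higher in females, and the males held 43.5 to 67.2 CPM, below every cow. Of the platelet and red cell list 3 were higher in females and 1 in males. The part of these lists in the POSTN difference was not tested.

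The other members in the pituitary did not pass after adjustment. SPARC was 255.9, 213.2, 261.3, 342.8 and 389.6 CPM in the cows and 535.7, 376.0, 335.0, 431.5 and 673.2 CPM in the bulls. The groups overlapped, and the log2 fold change was 0.68 (95% interval 0.21 to 1.15, adjusted p = 0.197). For THBS4 the cows held 0.316 to 3.56 CPM and the bulls 0.807 to 12.7 CPM (log2 fold change 1.70, adjusted p = 0.380), from 113 reads in all cows and 370 in all bulls. SPARCL1 gave 0.45 (adjusted p = 0.424). For FN1 the log2 fold change was 0.69 (adjusted p = 0.690), and bull 5, at 429.4 CPM against at most 136.4 CPM in the other bulls, set it: without that animal the value was -0.24. TNC gave 0.20 (95% interval -0.32 to 0.73), and the medians of cows and bulls were 125.9 and 126.4 CPM.

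In muscle FN1 had the largest difference between the sexes. The cows held 1464, 1348, 676.8, 489.7 and 1551 CPM and the bulls 348.7, 347.7, 263.1, 561.9 and 787.0 CPM. Of the cows, 3 were above every bull and the other 2 lay within the range of the bulls. The log2 fold change of males over females was -1.25 ± 0.40 (SE) with an adjusted p of 0.123. Without cow 4 it was -1.43 and was called (adjusted p = 0.00548). All 8 fibroblast markers had a higher mean in the muscle of females (3304 to 9991 CPM, males 2784 to 6219 CPM), as had all 4 tenocyte markers (30.3 to 200.1 and 33.5 to 72.0 CPM). Cow 1 and cow 2 held fibroblast sums of 9991 and 8245 CPM. The other cows held 3304 to 4024 CPM, within the male range. Also higher in females were 7 of 8 leukocyte, 5 of 6 adipocyte and 4 of 5 mesothelial markers. So were 5 of 8 each of the hepatocyte, endothelial and smooth muscle lists, and 3 of 5 of the platelet list. The highest adipocyte sum was that of cow 5, at 1223 CPM, while the median sum was 278.5 CPM in females and 446.6 CPM in males. Higher in males were 6 of 8 muscle fibre, 7 of 9 anterior pituitary and 4 of 6 Schwann and folliculostellate markers. No fibroblast or tenocyte marker was at 0 in all libraries of a group. The part of these lists in the FN1 values was not tested.

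**Figure D4:**
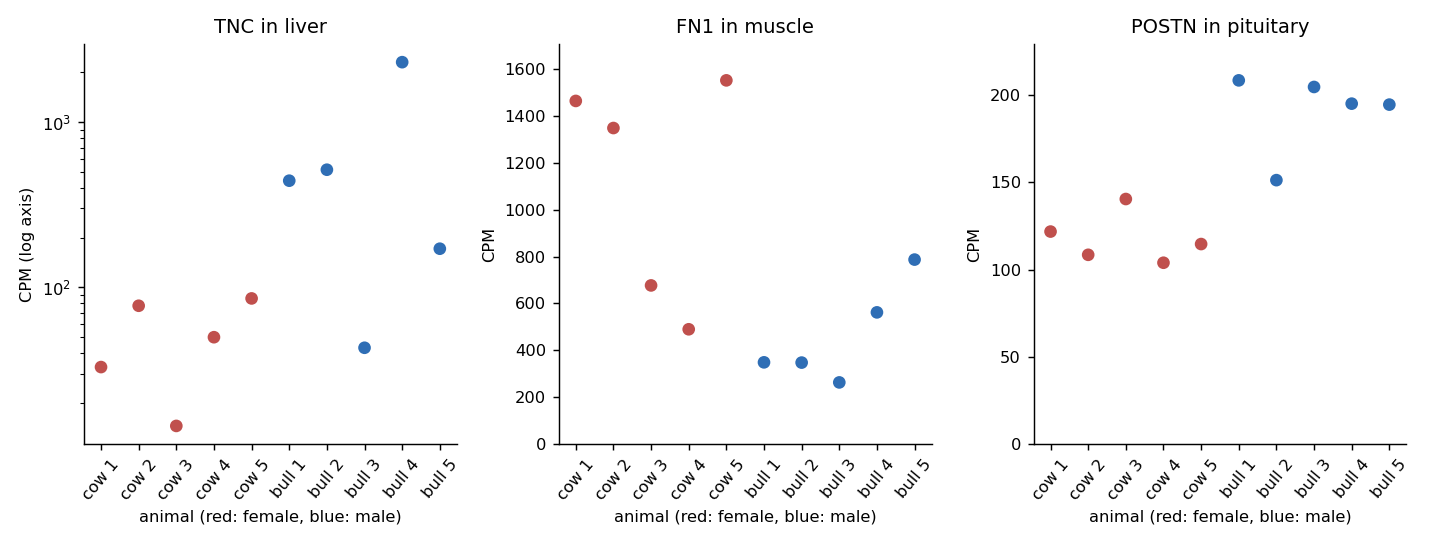
CPM of TNC in liver (log axis), FN1 in muscle and POSTN in pituitary for each cow (red) and bull (blue). The library labelled bull 3 had 43.0 CPM of TNC, within the female range, and the 5 bulls had more POSTN than any cow.

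THBS1 in muscle had a wide spread in both sexes. The cows held 290.2, 119.9, 69.7, 769.9 and 390.2 CPM and the bulls 1375, 162.0, 44.4, 223.6 and 340.2 CPM. The bulls included the highest and the lowest library, and the log2 fold change of 0.40 had a 95% interval of -1.01 to 1.81. For TNC (-0.05), SPARCL1 (-0.05) and THBS4 (-0.02) the muscle estimates were close to 0, with intervals that reached 0.82 in size for TNC and 0.83 for THBS4.

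In fat POSTN was the member with an unadjusted p under 0.05. The cows held 16.9, 19.8, 18.03, 36.9 and 28.9 CPM and the bulls 26.4, 38.2, 53.1, 41.4 and 90.9 CPM. The groups overlapped, and the highest value was that of bull 5, whose fat library had few reads of USP9Y, and the other bulls held 26.4 to 53.1 CPM. The log2 fold change was 1.03 (95% interval 0.25 to 1.82, adjusted p = 0.534) and lay between 0.71 and 1.25 as each animal was left out. Over fat, muscle and pituitary the estimate was 0.69 (adjusted p = 0.213). Of the fibroblast markers in fat, 7 of 8 were higher in males, at 12320 to 47125 CPM against 8960 to 18326 CPM in females. Bull 5, with the highest POSTN, had the lowest fibroblast sum of the males, and the other bulls held at least 19180 CPM. Its fat library also stood apart in adipocyte markers (27007 CPM, others at most 14293 CPM), muscle fibre markers (1467 CPM, others at most 472.3 CPM) and markers of smooth muscle, pericytes and stellate cells (5792 CPM, others at most 3055 CPM). Also higher in males were 5 of 6 adipocyte, 6 of 8 smooth muscle, 6 of 9 anterior pituitary and 3 of 4 tenocyte markers. Higher in females were 6 of 8 muscle fibre, 5 of 8 leukocyte, 4 of 5 mesothelial and 3 of 5 platelet markers. So were 5 of 6 Schwann and folliculostellate markers. The hepatocyte and endothelial lists had 4 of 8 each way. Without bull 5 the fibroblast, adipocyte and smooth muscle counts were the same. The part of these markers in the POSTN values was not tested.

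SPARC in fat separated the sexes by a small margin: the highest cow had 14474 CPM and the lowest bull 14552 CPM. The log2 fold change was 0.43 with an adjusted p of 0.846. FN1 in fat was 1771, 399.7, 463.5, 1073 and 3129 CPM in the cows and 2552, 1235, 3397, 2513 and 633.2 CPM in the bulls, which overlapped over most of the range (log2 fold change 0.60, adjusted p = 0.858). The remaining members in fat had adjusted p-values from 0.835 to 0.998.

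CTGF had a lower mean in the livers of males. The cows held 29.96, 25.1, 21.5, 5.48 and 8.89 CPM, and the libraries labelled bull 1 to bull 5 held 3.15, 5.55, 5.16, 12.1 and 9.91 CPM. The cows were higher in 3 libraries and overlapped with the bulls in the others, and the log2 fold change of males over females was -1.295, or -1.22 without the library labelled bull 3. For the other members in liver it lay between -0.27 and 0.67 with all 10 libraries, and no test was run on it. The 0.67 is that of THBS4 with its 29 reads, and it was -0.31 without bull 2 and 1.66 without cow 2.

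Deviations of the members between animals were then compared pair by pair. For each library the deviation of log2(CPM + 1) from the mean of its tissue and sex was taken, and Pearson's r was computed over the 40 libraries, which come from 10 animals and share each library's depth and scaling factor. Of 36 pairs of members, 31 had r above 0, with a median of 0.29 and a range of -0.22 to 0.76. Over all pairs of the 10946 genes with a mean of at least 1 CPM, 50.4% had r above 0 and the median was 0.0. The highest was FN1 with THBS2, at 0.76 over all libraries, 0.91 in pituitary and 0.35 in liver. THBS2 with CTGF followed at 0.69, then SPARC with THBS4 and THBS1 with CTGF at 0.55 each. The lowest was THBS1 with POSTN at -0.22. Pairs differed between tissues. THBS2 with THBS4 was at -0.89 in fat and 0.81 in pituitary, and THBS4 with CTGF at -0.72 in fat and 0.74 in pituitary. POSTN with CTGF was at -0.82 in fat and 0.30 in pituitary. In the pituitary, bull 5 held the highest FN1, THBS2, THBS4 and CTGF, at 429.4, 21.1, 12.7 and 154.6 CPM. The fat library of bull 5 held the lowest THBS2 and CTGF and the highest POSTN (23.9, 61.6 and 90.9 CPM). The r values were not computed without bull 5. The highest r of TNC with another member was 0.40, with THBS2. The deviations of TNC follow the labels. The liver libraries labelled bull 3 (43.0 CPM) and bull 4 (2305 CPM) were thus both set against the male mean. All r values are descriptions without a test, over 10 libraries where 1 tissue is named.

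**Figure D5:**
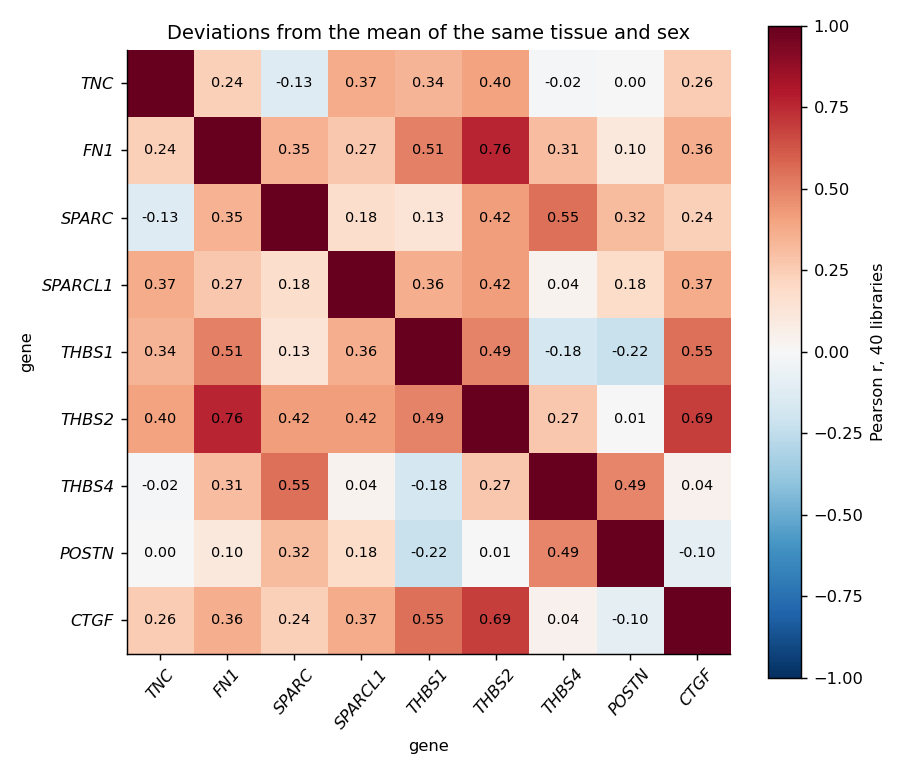
Pearson's r between the 9 genes over 40 libraries, computed on deviations of log2(CPM + 1) from the mean of the same tissue and sex. FN1 with THBS2 (0.76) and THBS2 with CTGF (0.69) were the highest of 36 pairs.

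Among 10946 genes with a mean of at least 1 CPM, the gene most like FN1 in this measure was PLCE1 (r = 0.80), followed by ELF4 (0.79) and BMX (0.78). For THBS1 they were ZNFX1 (0.80), FOSL2 and ERRFI1 (0.79 each). FN1 itself led the list of THBS2 (0.76), before PLCE1 (0.70) and SLC2A3 (0.70). CTGF was most like LHFPL2 (0.75), NTN4 (0.71) and ZNF438 (0.70), and SPARCL1 most like DSCC1 (0.72), MYO1D (0.72) and CNTLN (0.70). THBS4 was most like DPT, the gene of the matrix protein dermatopontin (0.69), then ADORA1 and PODN (0.65 each). SPARC was most like GALNTL1 (0.65), CCDC3 (0.64) and MEDAG (0.57), TNC most like CAPN8 (0.63), NHS (0.62) and GRHL1 (0.60), and POSTN most like CHMP4A (0.53), C8B (0.53) and SIRT7 (0.52).

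Beside the members, 19 other matricellular genes were tested. Between liver and fat all 19 were called and 18 were higher in fat, beside 65.1% and 35.8% of all genes. Between liver and muscle 13 were higher in muscle and 2 in liver, beside 34.4% and 28.4%. Fat exceeded muscle in 13 and fell below it in 1, beside 33.3% and 27.1%, and fat exceeded pituitary in 15 and fell below it in 4, beside 32.3% and 33.3%. Between liver and pituitary 5 were higher in liver and 7 in pituitary, beside 29.7% and 35.6%. The gene of galectin-1, LGALS1, had a median of 492.6 CPM in fat and 8.56 CPM in liver (log2 fold change of liver over fat -6.13, adjusted p = 1.80e-59). SPP1, the gene of osteopontin, had its highest median in the pituitary, at 474.8 CPM, against 3.04 CPM in liver (log2 fold change of liver over pituitary -7.12, adjusted p = 1.32e-15). In the pituitary SPP1 was the only gene of this list called between the sexes, and it was lower in males (log2 fold change -1.97, adjusted p = 0.00129), the direction opposite to that of POSTN.

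Structural matrix genes, with 17 tested, were mostly higher in fat than in the other tissues. Of these, 16 were higher in fat than in liver and none lower (35.8% of all genes were higher in fat), 15 higher in fat than in muscle (33.3%), and all 17 higher in fat than in pituitary (32.3%). Between liver and pituitary they split, with 4 higher in liver and 8 in pituitary, beside 29.7% and 35.6% of all genes. Higher in liver was NID1, the gene of the basement membrane protein nidogen-1 (log2 fold change 3.52, adjusted p = 2.68e-46), and BGN, the gene of the proteoglycan biglycan (1.57, adjusted p = 3.35e-08). COL3A1, a fibrillar collagen chain, had medians of 7470 CPM in fat, 1689 CPM in muscle, 194.0 CPM in liver and 118.5 CPM in pituitary. Between the sexes, COL1A1, which is also a fibroblast marker above, was higher in the pituitary of males (log2 fold change 1.39, adjusted p = 0.0345), where bull 5 held 388.9 CPM, the other bulls 91.7 to 152.9 CPM and the cows 48.5 to 88.4 CPM, and LOX, the enzyme that cross-links collagen and elastin, was lower in the muscle of males (-2.23, adjusted p = 0.00817). The median log2 fold change of the list between the sexes was 0.61 in pituitary and -0.53 in muscle, beside 0.0 and -0.04 for all tested genes.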

How the data were processed

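RNA of 40 tissue samples was sequenced as paired-end reads from poly-A selected libraries. The authors trimmed the reads with Trimmomatic, aligned them to the bosTau7 assembly with Bowtie2 within TopHat2, counted uniquely aligned reads per gene with HTSeq, and deposited 1 table of raw counts per sample, without normalization. The counting mode and strand setting are not given in the sources used here. A row without a gene name, 0.114% to 2.69% of the reads, was left out. No coordinates are printed, because the annotation at hand is of another assembly than the alignments.

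Sample groups came from the labels. The 13148 of 13570 genes with any read in any library entered edgeR 4.0.16 under R 4.3.3, with TMM factors, negative binomial models and the likelihood ratio test, as in the study, with Benjamini-Hochberg adjustment over all tested genes, a threshold of 0.05 and a prior count of 0.125. Tissues were compared in a model of sex and tissue over 40 libraries, with a dispersion per gene shared by all tissues. Sexes were compared within fat, muscle and pituitary, over these 3 tissues with tissue as a term, and by an interaction. Intervals are 95% normal intervals from the standard error. At the depth of 5173092 to 19165864 reads on genes, a level under 3 reads in a library was treated as near the floor, and floors cover counting error only.

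The alternatives were the quasi-likelihood test, DESeq2 1.42.0, RLE factors, library sizes alone, filterByExpr, the animal as a replicate block, and leaving out each animal, the liver library labelled bull 3 or the fat library of bull 5. The libraries of the 4 tissues come from the same animals by the labels, and the median correlation of same-animal deviations was 0.0285 to 0.324 over pairs of tissues. For the sexes in liver, the other scalings were added after seeing the data, as were the marker lists without the liver library labelled bull 3 and without the fat or pituitary library of bull 5. Marker counts between the sexes compare mean CPM. All 9 members were named in each comparison; from each list at most 2 genes per direction and comparison, those with the largest change, or its genes of highest level; for likeness the 3 highest r. The members and lists were chosen with earlier results of these data known. The scripts were tested on simulated counts with 200 changed genes. Python 3.11.15 with matplotlib 3.10.9 made the figures.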

Additional observations from a re-analysis of the deposited data

Results flagged for a closer look

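Within the 72 groups of 5 libraries of a gene, tissue and sex, 10 held a library at the high or low end whose gap to its nearest neighbour was above the critical share of the group's range for 5 libraries (0.71). Chance flags about 1 in 20 groups where values follow a normal distribution. The CPM were not transformed and their distribution was not checked, so the chance rate here is not known. TNC reached 2305 CPM in the liver of bull 4, from 29542 reads, where the other male livers held 43.0 to 514.8 CPM, and 81.0 CPM in the fat of cow 1, against 8.12 to 21.4 CPM. FN1 was 429.4 CPM in the pituitary of bull 5, against 49.7 to 136.4 CPM. SPARC was 355.6 CPM in the liver of bull 2, against 222.9 to 246.1 CPM.

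THBS1 stood apart in 3 groups: it was high in the fat of cow 5 (732.3 CPM, others 64.1 to 257.2 CPM) and in the muscle of bull 1 (1375 CPM, others 44.4 to 340.2 CPM), and low in the pituitary of cow 4 (161.3 CPM, others 227.5 to 248.4 CPM). POSTN was high in the livers of cow 3 (240.3 CPM, others 87.9 to 128.4 CPM) and bull 2 (401.6 CPM, others 99.1 to 179.6 CPM), and low in the pituitary of bull 2 (151.3 CPM, others 194.6 to 208.5 CPM).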

How the results depend on the processing

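Of 1530 values of members under an alternative, 1509 stayed on the same side of the threshold; 13 calls were lost, 6 were gained and 2 changed sign with a call, and the report gives these. The 2 are SPARCL1 between fat and muscle (0.035) and POSTN between liver and pituitary (-0.773), both with library sizes alone, a scaling that moved the median of all genes by -0.857 to 0.735 across tissue contrasts. No member's tissue call was lost under the quasi-likelihood test, DESeq2 or RLE factors. Counts of genes called between the sexes depended strongly on the test. In fat the count was 15, or 3 by the quasi-likelihood test, 28 by DESeq2, 6 with filterByExpr and 5 to 22 without each animal. In muscle it was 68, or 7 by the quasi-likelihood test and 25 to 553 without each animal, when 0 to 1 members were called. In pituitary it was 98, or 12 by the quasi-likelihood test, 56 with library sizes alone and 54 to 231 without each animal, and the 1 called member became 0 under both settings and 0 to 1 without each animal. Over fat, muscle and pituitary it was 79, or 19, 240 and 17 to 409 in the same order. The interaction gave 25 genes, 0 by the quasi-likelihood test (913 at an unadjusted p under 0.05), 46 without the fat library of bull 5 and 2 to 104 without each animal. With the animal as a replicate block, the call of TNC between liver and pituitary was lost and that of THBS2 between muscle and pituitary gained; no other member's call changed. The cause of these changes was not tested. Depth limits THBS4 in liver, with 29 reads in all.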

Other observations

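Receptors of matricellular proteins went both ways between tissues, and more of them were lower than higher in the pituitary. Of 15 tested, 8 were higher in liver than in fat and 5 lower, beside 29.2% and 35.8% of all genes. In liver against pituitary 10 were higher in liver and 2 lower, beside 29.7% and 35.6%. Muscle against pituitary gave 9 higher in muscle and 1 lower, beside 32.0% and 33.0%. Fat against pituitary gave 8 higher in fat and 5 lower, beside 32.3% and 33.3%. The integrin genes split by tissue: ITGA9, a subunit of a tenascin receptor, had a median of 112.2 CPM in liver and 3.04 CPM in pituitary (log2 fold change 5.27, edgeR adjusted p = 4.41e-53), whereas ITGB6 had 57.9 CPM in muscle and 0.175 CPM in liver (log2 fold change of liver over muscle -8.00, adjusted p = 8.85e-87). CD36, a receptor of thrombospondin 1 and of fatty acids, was highest in fat, at a median of 2640 CPM, against 11.8 CPM in pituitary (log2 fold change 7.93, adjusted p = 6.09e-78).

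Proteases and their inhibitors were mostly higher in fat than in liver or pituitary. Of 15 tested, 12 were higher in fat than in liver, beside 35.8% of all genes, and 12 higher in fat than in pituitary, beside 32.3%, with none lower than in pituitary. MEP1B, a meprin subunit, was the 1 gene called higher in liver than in fat, with a median of 84.1 CPM in liver and 0.147 CPM in fat (log2 fold change 7.31, adjusted p = 9.85e-26). Of 16 TGF-beta ligands, receptors and early targets, 7 were higher in fat than in pituitary and 6 lower, beside 32.3% and 33.3%. Between liver and muscle 2 were higher in liver and 10 in muscle, beside 28.4% and 34.4%. Between muscle and pituitary 9 were higher in muscle and 2 in pituitary, beside 32.0% and 33.0%.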
